A study of Mus musculus with 6 samples.

Results

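Cav1, Cav2 and Cavin4 encode 3 of the proteins that coat caveolae, the small flask-shaped pits of the plasma membrane. They were 3 of the 53647 features in the table and were found by their Ensembl identifiers, without regard to version. The data are RNA sequencing of the D2.OR line, murine mammary carcinoma cells that serve to study dormancy after dissemination. The cells carried a lentiviral hairpin against SLX4IP (shSLX4IP, 3 libraries) or a scrambled, non-targeting hairpin (Scram, 3 libraries), had been selected with puromycin and grew on a Cultrex basement membrane cushion for 7 days. They were plated at 31500 cells per cm2, with 10% serum and 5% Cultrex. All 6 libraries thus share the line, the vector type, the selection and the culture, and the labels name a single hairpin against SLX4IP and do not say whether the lines were clones or pools. The libraries of a group carry the letters A, B and C.

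Caveolin-1 is the main coat protein of caveolae outside muscle and oligomerises with caveolin-2, which needs caveolin-1 to leave the Golgi apparatus. Cavins are cytoplasmic proteins that join the caveolin coat and shape the pit, and cavin-1 is required for caveolae to form. Cavin-4, earlier named MURC, is known as the cavin of heart and skeletal muscle. In mammary tissue caveolin-1 is best known from myoepithelial cells, fibroblasts, adipocytes and endothelium.

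Gene symbols can be read only in part of this table, because genes that every cell uses were listed at 0 over most of the genome. Cav2 and Cav1 lie in a stretch of chromosome 6 and Cavin4 in a stretch of chromosome 4 where high values follow the annotated genes. Features in such stretches and mitochondrial genes are called placed here. The other caveola genes examined, Cav3, Cavin1, Cavin2, Cavin3, Ehd2, Pacsin2 and Pacsin3, all lie outside them. The identifiers of 5 of those 7 were listed at 0 in every library, and none of the 7 can be read as its gene. Slx4ip, the gene the hairpin targets, also lies outside them and was listed at 0 in all 6 libraries, so these values give no check of the knockdown or of the labels. The recovered depth ran from 5433573 to 6693111 reads per library. Scram A stood apart from the other libraries, with the fewest features above 0 (8464, against at least 10548 elsewhere) and deposited values that summed to 8.95e+06, against 5.28e+06 to 5.97e+06 in the others. Of the epithelial and mesenchymal marker lists, 1 of 5 and 2 of 5 genes were placed, and the labelled cell type could not be checked against keratins or Epcam.

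Cav2 (ENSMUSG00000000058.7) occupies chr6:17281185-17289115 of GRCm38 and Cav1 (ENSMUSG00000007655.17) chr6:17306335-17341452, both on the plus strand, with 17220 bases between the end of Cav2 and the start of Cav1. Cavin4 (ENSMUSG00000028348.8) occupies chr4:48663514-48673502 on the plus strand and begins 383 bases after the end of Tmeff1. In GENCODE M21 no exon of the 3 genes overlaps an exon of another gene, although an antisense RNA gene, Gm15581, spans Cav2 and Cav1. The version numbers in the table are higher by 1 than those of GENCODE M21 for each member, so the exon models behind the values may differ from those used here for length. The 250 bases before each annotated start (RefSeq, GRCm38.p6, plus strand, 5′ to 3′) are shown because Cav2 and Cav1 are neighbours with different fold changes and Cavin4 has the lowest of the 3. Capitals mark matches on either strand to the TATA box letters TATAAA, the GC box letters GGGCGG, the CCAAT box letters and the AP-1 letters TGACTCA, with no overlap between matches.
Cav1, chr6:17306085-17306334: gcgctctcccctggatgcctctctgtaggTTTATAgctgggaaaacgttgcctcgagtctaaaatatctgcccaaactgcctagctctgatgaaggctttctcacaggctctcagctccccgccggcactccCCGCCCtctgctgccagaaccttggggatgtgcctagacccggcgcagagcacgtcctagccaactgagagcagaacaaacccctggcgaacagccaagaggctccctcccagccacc
Cav2, chr6:17280935-17281184: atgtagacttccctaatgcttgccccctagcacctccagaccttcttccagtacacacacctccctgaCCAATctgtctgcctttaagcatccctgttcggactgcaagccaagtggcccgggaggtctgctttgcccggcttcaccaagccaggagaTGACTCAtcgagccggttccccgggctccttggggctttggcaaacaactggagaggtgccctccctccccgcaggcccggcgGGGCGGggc
Cavin4, chr4:48663264-48663513: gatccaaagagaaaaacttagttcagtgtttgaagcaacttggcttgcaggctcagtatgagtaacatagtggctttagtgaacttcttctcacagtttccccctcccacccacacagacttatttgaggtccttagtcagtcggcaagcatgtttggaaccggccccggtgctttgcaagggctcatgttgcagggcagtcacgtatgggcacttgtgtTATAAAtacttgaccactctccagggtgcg

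The Cavin4 sequence held 1 match, TATAAA from base -30 to -25 relative to the start. The Cav1 sequence held TATAAA on the minus strand at -221 to -216 and GGGCGG on the minus strand at -118 to -113, and a further Cav1 start in the RefSeq table is not shown. The Cav2 sequence held CCAAT at -182 to -178, TGACTCA at -92 to -86 and GGGCGG at -9 to -4. Of all 32851 promoter sequences of that length, 12.4% held TATAAA, 32.7% GGGCGG, 33.8% CCAAT and 4.46% TGACTCA. These matches describe the letters and are not evidence of binding. The GC content was 59.6% for Cav1, 62.0% for Cav2 and 48.8% for Cavin4.

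Cavin4 fell to a small fraction of its Scram level in shSLX4IP cells. Its deposited values, counts scaled by the authors with a size factor for each library, were 50.7, 42.0 and 56.5 in shSLX4IP A, B and C, against 2920, 2090 and 1957 in Scram A, B and C. All 3 shSLX4IP libraries lay far below all 3 Scram libraries, and the groups did not overlap. The mean was 49.7 ± 7.32 in shSLX4IP and 2322 ± 522 in Scram (SD, n = 3 each), so shSLX4IP cells held 2.14% of the Scram level. The log2 fold change, on the log2(value + 1) scale and as shSLX4IP over Scram, was -5.50 (SE 0.24, 95% interval -6.10 to -4.91, limma adjusted p = 0.00028). The values rest on 56, 43 and 71 recovered reads in shSLX4IP A, B and C and on 1994, 2237 and 2147 in Scram A, B and C. Scaled to equal library totals (reads per 1000000 recovered reads, RPM), Cavin4 stood at 9.38 ± 1.36 in shSLX4IP and 340 ± 22.5 in Scram (SD, n = 3 each). Its fold change ranked 15th from the lowest of the 462 placed features tested.

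Cav1 was lower in shSLX4IP on the deposited scale, by a far smaller amount. Its values were 14103, 13978 and 13418 in shSLX4IP A, B and C, against 20895, 21120 and 21283 in Scram A, B and C. The groups did not overlap, and within each group the libraries lay close together. The mean was 13833 ± 365 in shSLX4IP and 21100 ± 195 in Scram (SD, n = 3 each), or 65.6% of the Scram level. The log2 fold change was -0.61 (SE 0.094, 95% interval -0.84 to -0.38, limma adjusted p = 0.00847). It ranked 176th from the lowest of the 462 placed features tested, so many placed features fell further. The level of Cav1 in Scram A depends on that library's size factor. In RPM, Cav1 had 2673, 2635 and 2518 in shSLX4IP A, B and C, against 2335, 3699 and 3562 in Scram A, B and C. On that scale Scram A lay below all 3 shSLX4IP libraries while Scram B and C lay above them, and the groups overlapped. With equal library totals the log2 fold change of Cav1 was -0.26 (limma adjusted p = 0.34). With equal totals and without Scram A it was -0.48 (limma adjusted p = 0.00241). Over all 19 other settings the limma, edgeR or DESeq2 adjusted p of Cav1 ranged from 5.4e-29 to 0.965, and the call was kept in 12 of them.

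Cav2 showed no called difference. Its values were 6069, 5968 and 5597 in shSLX4IP A, B and C, against 5111, 6320 and 6313 in Scram A, B and C. Scram A was the lowest library and Scram B and C the highest, so the shSLX4IP values lay between them. The mean was 5878 ± 248 in shSLX4IP and 5914 ± 696 in Scram (SD, n = 3 each). The log2 fold change was -0.0027 (SE 0.13, limma adjusted p = 0.99), with a 95% interval of -0.34 to 0.33 on the deposited scale. That interval does not cover the choice of scaling, since the value was 0.34 with equal library totals and 0.50 after quantile normalization, both outside it. In RPM, Cav2 had 1150, 1125 and 1050 in shSLX4IP A, B and C, against 571, 1107 and 1057 in Scram A, B and C. Apart from Scram A, the libraries of both groups thus lay within a narrow range on that scale. In these bulk samples fewer cells expressing a gene and less RNA per cell cannot be told apart.

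**Figure D1:**
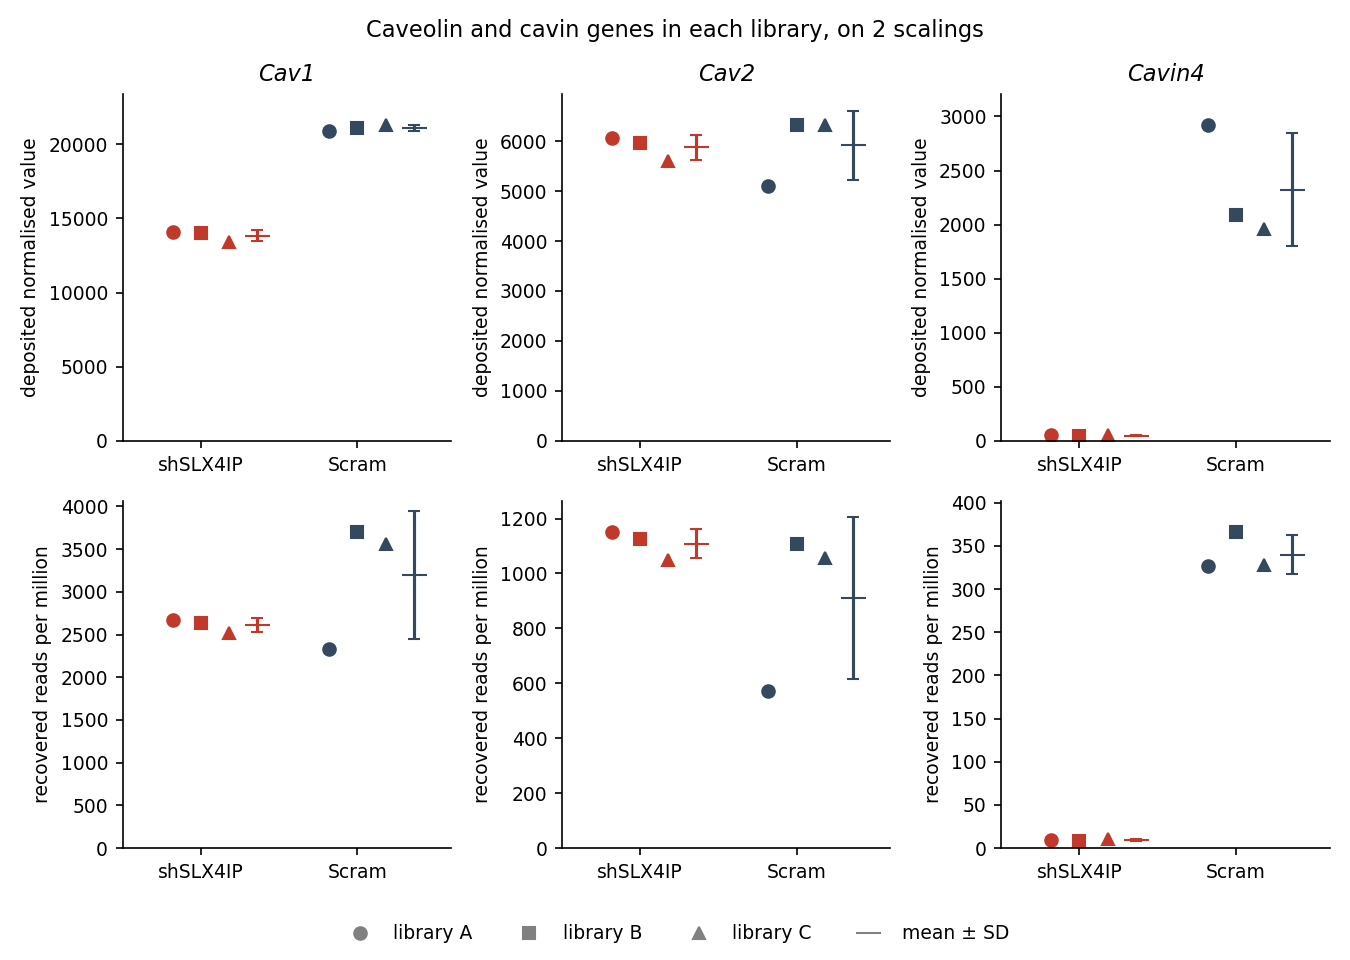
Deposited normalised values (upper panels) and the same after scaling recovered reads to equal library totals (lower panels) of Cav1, Cav2 and Cavin4 in each library, with the shSLX4IP libraries on the left of each panel and the Scram libraries on the right; the dash and bar give the mean ± SD (n = 3). Cavin4 is near the floor in all 3 shSLX4IP libraries on both scales, whereas Scram A lies below the shSLX4IP libraries for Cav1 only in the lower panel.

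Both called members were lower, so 2 of the 3 were lower and 0 higher at a limma adjusted p under 0.05. Over all 8127 features tested, 11.3% were lower and 11.7% higher, and over the 462 placed features 22.9% were lower and 17.3% higher. The groups did not overlap in 2 of the 3 members, against 53.5% of all features tested and 67.1% of placed ones. All 3 members passed the filter on low values, which asked for a mean of 10 or more. The median log2 fold change was -0.61 over the 3 members, 0.25 over all features tested and -0.23 over placed ones. The median over all features was 0.58 with equal library totals and -0.0028 after quantile normalization. Set against the median of placed features, Cav1 lay at -0.38 on the deposited scale, -0.38 with equal totals and -0.082 after quantile normalization. In the same order of settings, Cavin4 lay at -5.27, -5.28 and -5.71 and Cav2 at 0.23, 0.23 and 0.43.

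The balance between the caveolins was compared within each library, where the size factor cancels. The ratio of Cav1 to Cav2 in deposited values was 2.32, 2.34 and 2.40 in shSLX4IP A, B and C, against 4.09, 3.34 and 3.37 in Scram A, B and C. Every shSLX4IP library had a lower ratio than every Scram library, and Scram A had the highest. Per kilobase of merged exon (3444 bases for Cav1 and 3335 for Cav2 in M21) the ratio was 2.28 ± 0.037 in shSLX4IP and 3.49 ± 0.41 in Scram (SD, n = 3 each). The difference in mean log2 ratio was -0.61 (exact 2-sided permutation p = 0.1), and 3 libraries against 3 cannot give a p below 0.1. It was -0.51 without Scram A, the smallest difference in the 10 other settings run for this ratio. The ratio of Cavin4 to Cav1 per kilobase was 0.00604 ± 0.00101 in shSLX4IP and 0.185 ± 0.0433 in Scram (SD, n = 3 each). Its mean log2 ratio of deposited values differed by -4.89 (exact 2-sided permutation p = 0.1, the smallest possible).

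**Figure D2:**
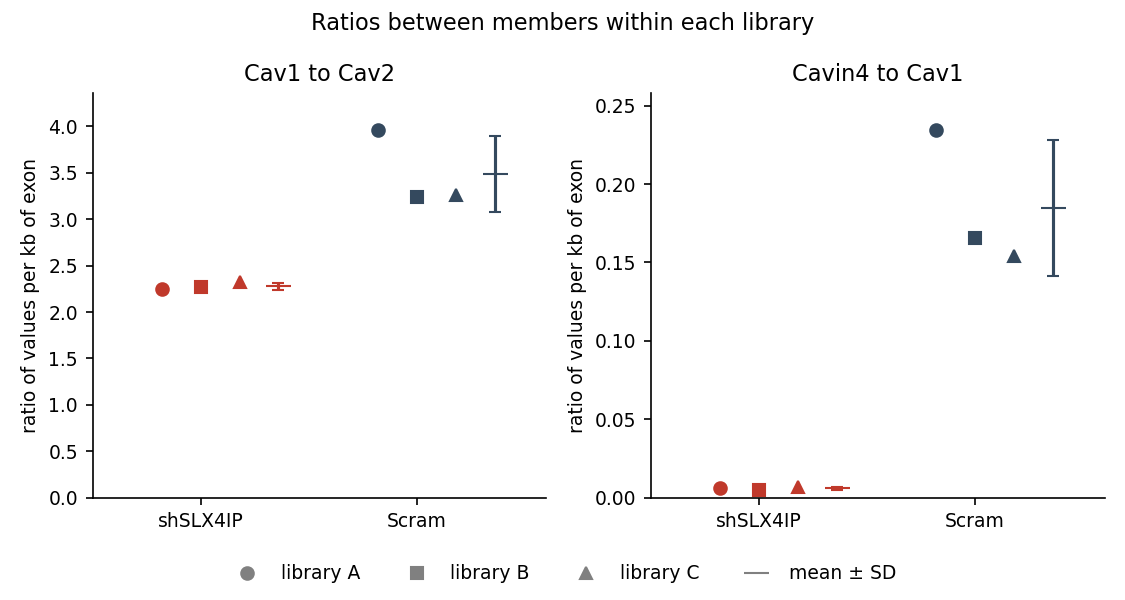
Ratio of Cav1 to Cav2 (left panel) and of Cavin4 to Cav1 (right panel), per kilobase of merged exon, in each shSLX4IP and Scram library, with the mean ± SD (n = 3). The shSLX4IP libraries lie together below all Scram libraries in both panels, and Scram A is the highest of them.

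Per kilobase of exon, Cav1 ranked high among the 354 placed nuclear protein-coding genes tested, at position 10 in shSLX4IP and 17 in Scram. Its deposited value per kilobase was 4017 ± 106 in shSLX4IP and 6126 ± 56.6 in Scram (SD, n = 3 each). Cav2 came at position 29 in shSLX4IP and 44 in Scram, with 1763 ± 74.4 and 1773 ± 209 per kilobase in shSLX4IP and Scram. Cavin4 came at position 317 in shSLX4IP and 72 in Scram, with 24.2 ± 3.57 and 1131 ± 254 per kilobase in shSLX4IP and Scram. The order of levels was thus Cav1, Cav2, Cavin4 in each of the 6 libraries. In Scram A, Cavin4 and Cav2 were closest, at 1422 and 1532 per kilobase.

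The genes next to the members were read against the placed features, of which 17.3% were higher and 22.9% lower. Of the 5 protein-coding genes on each side of the Cav2 and Cav1 pair, 5 of 10 were tested, and 1 was higher and 1 lower, a share near that background. Tes, the LIM-domain focal adhesion gene before Cav2, fell to 8210 ± 320 in shSLX4IP, against 15043 ± 793 in Scram (SD, n = 3 each; log2 fold change -0.87). Mdfic, a regulator of transcription, rose to 2340 ± 179 in shSLX4IP, against 893 ± 119 in Scram (log2 fold change 1.39). The limma adjusted p was 0.00395 for Tes and 0.00354 for Mdfic, and the call of Tes was lost with equal totals and after quantile normalization (log2 fold change -0.22). Met, the hepatocyte growth factor receptor gene after Cav1, had a log2 fold change of 0.49 and did not pass (limma adjusted p = 0.179). Capza2 and St7 did not pass either, with log2 fold changes of 0.19 and -0.43.

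Around Cavin4, 6 of 10 neighbours were tested, and 2 were higher and 1 lower. Tmeff1, a membrane protein gene that ends just before Cavin4 on the same strand, rose to 2660 ± 11.2 in shSLX4IP, against 1575 ± 178 in Scram (SD, n = 3 each; log2 fold change 0.76). Invs, the ciliary inversin gene, rose as well, with a log2 fold change of 1.76, and Erp44, an endoplasmic reticulum chaperone gene, fell, with one of -1.33. The limma adjusted p was 0.0155 for Tmeff1, 0.00191 for Invs and 0.00626 for Erp44, and the Tmeff1 call was lost in limma without the trend and without any 1 shSLX4IP library. Tex10, Msantd3 and Mrpl50 did not pass, with log2 fold changes between -0.70 and -0.37, although that of Tex10 was 0.063 after quantile normalization. Without Scram A each was called lower, at -0.45, -0.46 and -0.26 in that order (limma adjusted p = 0.00511, 0.0363 and 0.0475). That setting called 1573 of all features lower, against 920 with Scram A kept. DESeq2 also called Tex10 and Msantd3 lower. With equal totals and no Scram A, only Tex10 of them was called (limma adjusted p = 0.0188). The feature after Cavin4, the processed pseudogene Gm12439 that begins 1654 bases past its end, was named after its values were seen. Its values were 1.81, 1.95 and 14.3 in shSLX4IP A, B and C, against 288, 79.4 and 107 in Scram A, B and C. It met the filter mean of 10 only through the Scram libraries (mean 6.03 in shSLX4IP and 158 in Scram). Its call (limma adjusted p = 0.016) was lost without Scram C, shSLX4IP A or shSLX4IP B. As the pseudogene was picked by these same values, that call is not an independent test. As a processed pseudogene it may share reads with another gene, so its value is uncertain.

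**Figure D3:**
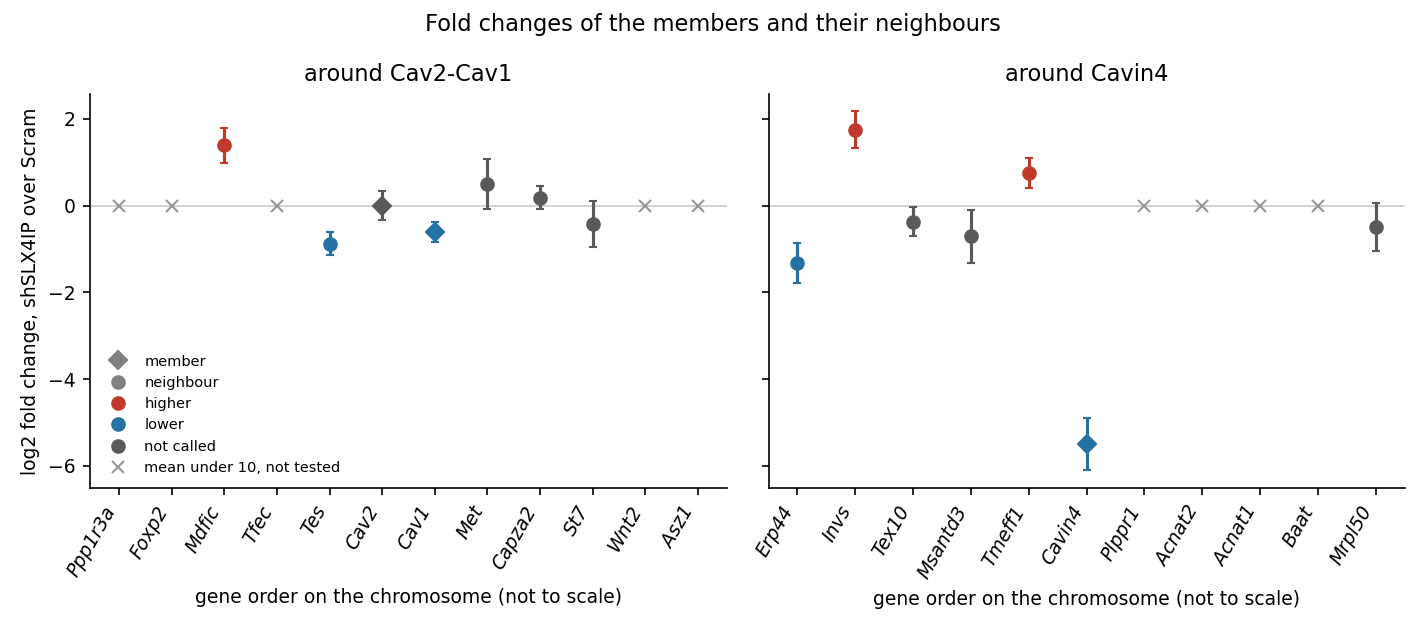
Log2 fold change, shSLX4IP over Scram, with its 95% interval, of the members (diamonds) and the 5 protein-coding genes on each side, in gene order and not to scale; crosses on the 0 line mark untested genes, which have no value. Cavin4 at -5.50 lies far below its neighbours, which run from -1.33 to 1.76, and the genes around Cav2 and Cav1 run from -0.87 to 1.39.

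A list of 19 genes tied to membrane rafts, the cell cortex or caveolin-binding proteins was also read, of which 11 were placed and tested. Of these 11, 3 were higher, 2 lower and 6 not called, with a median log2 fold change of 0.40, and the shares of placed features given above are the background. Lyn, a Src-family kinase found in rafts, rose to 1514 ± 43.3 in shSLX4IP, against 212 ± 61.1 in Scram (SD, n = 3 each; log2 fold change 2.87). Flnc, the filamin that cross-links actin and is most abundant in muscle, rose to 11802 ± 623 in shSLX4IP, against 3024 ± 430 in Scram (log2 fold change 1.97). Reck, a membrane-anchored inhibitor of metalloproteinases, rose with a log2 fold change of 1.31 (limma adjusted p = 0.0437), but 9 of 19 alternatives ended that call, including the removal of Scram C and of each shSLX4IP library in turn. Vcp, the ATPase that extracts ubiquitinated proteins and takes part in the turnover of caveolin-1, fell to 14840 ± 162 in shSLX4IP, against 45246 ± 12356 in Scram (log2 fold change -1.57). Its lowest Scram value was 36326, in Scram B, above all 3 shSLX4IP values. Tspan12, a tetraspanin, fell to 13.7 ± 8.08 in shSLX4IP, against 1306 ± 62.0 in Scram (log2 fold change -6.65). Its shSLX4IP values are near the floor and rest on 45 recovered reads over the 3 libraries. The limma adjusted p of Lyn, Flnc, Vcp and Tspan12 lay between 0.00081 and 0.00477, and all 4 kept their call in each of 19 other settings. The 6 not called were Abca1, which exports cholesterol, Met, Rock1, Stoml2, Tgfbr1 and Tln1, with log2 fold changes from -0.47 to 0.63, of which Rock1, Stoml2 and Tln1 changed sign in at least 1 other setting. Scram A was the lowest library for Abca1, Met, Rock1 and Tgfbr1 and the highest for Stoml2. Without Scram A the log2 fold change was 0.0895 for Abca1 and -0.149 for Stoml2, which had set both ends of that range. Tln1 was called lower without Scram A (-0.40, limma adjusted p = 0.00881), with DESeq2 and with a trend over exonic length removed. Tgfbr1 was called higher with equal totals and no Scram A (0.32, limma adjusted p = 0.0387). Abca1, Met, Rock1 and Stoml2 were called in none of the 19 other settings.

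Because cavin-4 is known from striated muscle, the other genes of a muscle marker list were read beside it. Of 7 further genes, 3 were placed and 2 tested, and both of those rose, against 17.3% of placed features that were higher; 2 genes are too few to read as a group. Tpm2, a tropomyosin, was at 1423 ± 183 in shSLX4IP and 144 ± 97.4 in Scram (SD, n = 3 each; log2 fold change 3.48, limma adjusted p = 0.00545), and Flnc is given above. The receptor kinase gene Musk was listed at 0 in every library but Scram B, where it was at 7.47. The summed value of these 3 ranged from 12801 to 13690 in shSLX4IP and from 2809 to 3483 in Scram, and Flnc made up most of it in both groups. The identifiers of Des, Myod1, Myog and Cav3 were listed at 0 in all libraries but are not placed. Of the mesenchymal list, the type I collagen gene Col1a2 fell to 271 ± 31.4 in shSLX4IP, against 23243 ± 2627 in Scram (SD, n = 3 each; limma adjusted p = 7.64e-05). Zeb1 was at 1450 ± 30.9 in shSLX4IP and 690 ± 312 in Scram and was not called (limma adjusted p = 0.0798), but was called without Scram A and in 6 of the other 18 settings. The 2 placed mesenchymal genes summed to between 1662 and 1786 in shSLX4IP and between 20574 and 25782 in Scram. Col1a2 made up most of that sum in Scram and Zeb1, which did not fall, most of it in shSLX4IP. The part of such genes in the Cavin4 result was not tested. Grhl2, the 1 placed epithelial gene, was at 2.93 to 20.7 in shSLX4IP and 16.8 to 68.8 in Scram, and Cav1 was the 1 placed gene of the basal list. No gene of the endothelial list was placed.

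The placed genes with the most similar profiles were found by the Euclidean distance between log2 values over the 6 libraries, each gene centred on its own mean, among 339 genes with a mean of at least 100. Nearest to Cavin4 were Galnt12, a glycosyltransferase gene, at a distance of 0.73 and the RNA gene Snhg18 at 0.74. Col1a2, Gem and Klf4 came next, at 1.41 to 1.65. Galnt12 was at 18.5 ± 4.95 in shSLX4IP and 1238 ± 281 in Scram, and Snhg18 at 24.5 ± 4.37 in shSLX4IP and 1030 ± 346 in Scram (SD, n = 3 each). Like Cavin4 on the deposited scale, both were highest in Scram A, which follows in part from choosing them by these same values. Galnt12, Snhg18 and Gem (24.1 ± 12.5 in shSLX4IP and 535 ± 32.0 in Scram) met the mean of at least 100 only through their Scram libraries. The same holds for Cavin4. Nearest to Cav1 were Ccny, Skp2, Rab18, Gcc1 and Topors, at distances of 0.16 to 0.21 and with log2 fold changes from -0.68 to -0.47; Gcc1 was not called, and Ccny, Skp2, Rab18 and Topors each lost their call in at least 7 of 19 other settings, Rab18 with a change of sign after quantile normalization (0.023). Nearest to Cav2 were Asph, Calu, Tmem168, Ugcg and Pip4p2, at 0.16 to 0.19 and with log2 fold changes from -0.049 to 0.11. The distances depend on size as well as shape of the profile, and with 6 libraries they describe these data only. All these genes were chosen by the same values that give their fold changes. Fold changes near that of the member, and the calls that go with them, therefore follow from the choice and are no further support.

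Across settings the members kept their order of fold change. The log2 fold change of Cavin4 ran from -5.64 to -5.13 over 19 other settings, none with a block, and the adjusted p of limma, edgeR or DESeq2 was at most 0.00474. That of Cav1 ran from -0.62 to -0.017 and that of Cav2 from -0.10 to 0.50, with Cav1 below Cav2 in each setting. The Cav1 call was lost with equal totals, after quantile normalization, in limma without the intensity trend, without Scram C and without any 1 shSLX4IP library. With a trend over exonic length removed within each library, Cav1 was at -0.38 (limma adjusted p = 0.0352) and Cavin4 at -5.13.

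**Figure D4:**
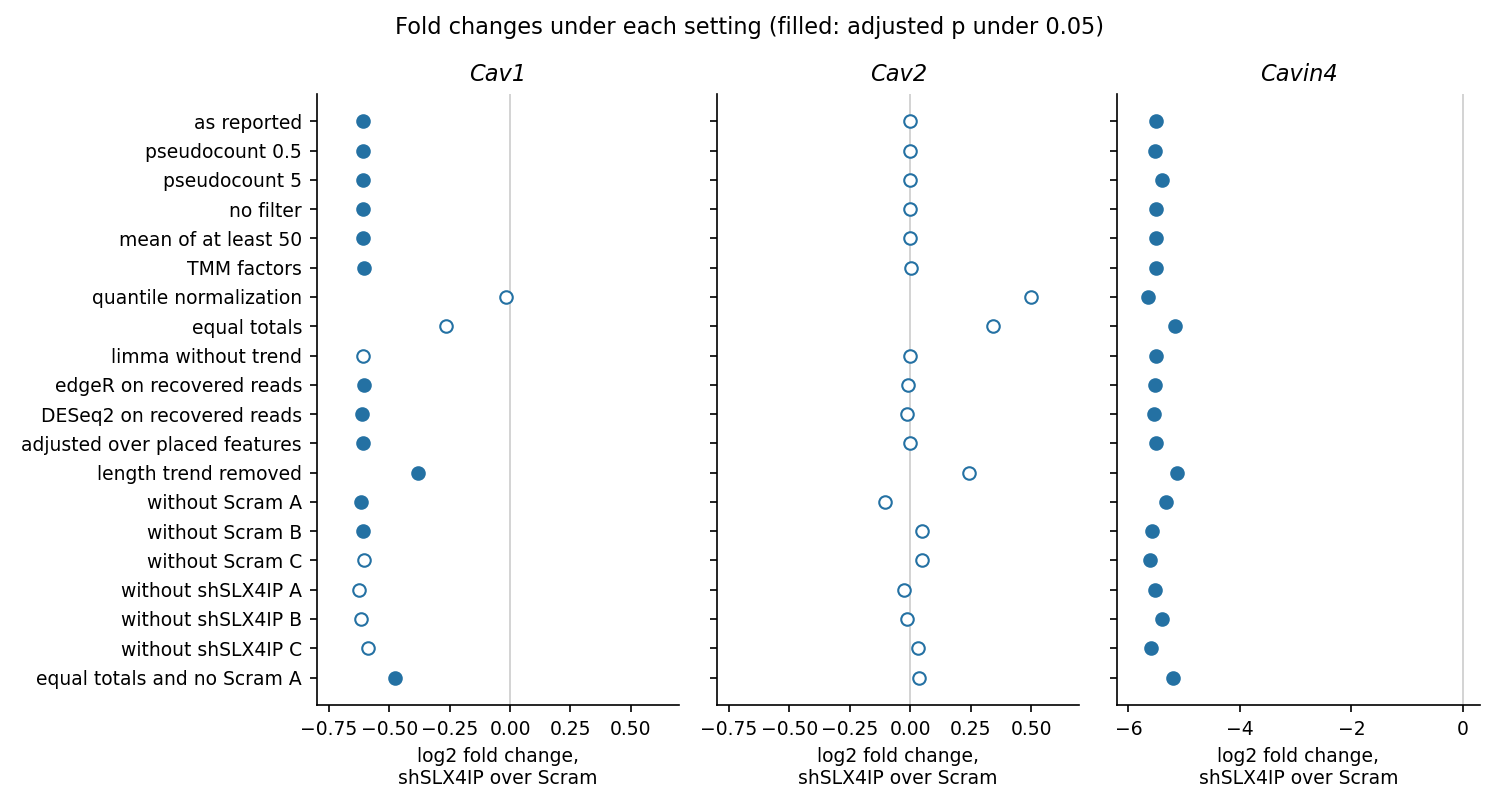
Log2 fold change, shSLX4IP over Scram, of Cav1, Cav2 and Cavin4 as reported and under 19 other settings of the processing, with filled points where the adjusted p was under 0.05; the Cavin4 axis has its own range. Cavin4 stays between -5.64 and -5.13, while Cav1 reaches -0.017 and Cav2 0.50 after quantile normalization.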

How the data were processed

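Total RNA (1 µg per library) was sequenced after a stranded poly(A) preparation, per the labels' protocols. Per the submitters' processing notes, the tools were DESeq2 1.22.1, StringTie 2.1.7, STAR 2.7.7 and fastp 0.19.5, with the build GRCm38. Each tool's role, the annotation release and the strand setting were not given in the sources used here. What the authors deposited is a normalised signal, namely counts that they scaled with a size factor for each library, judging by the table's name and the steps of its values. Divided by 1 step per library, at least 99.98% of values above 0 lay within 0.1 of a whole number, which gave recovered reads. The column letters are not tied to the replicate numbers of the labels. The labels call the replicates biological without naming separate cultures, so the p-values measure the spread between these libraries.

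Placed features were found by scoring protein-coding genes in chromosome order (3 for a mean of at least 1000, otherwise -1), keeping maximal segments scoring at least 30, and adding mitochondrial genes. There were 4 segments, and the highest score of any other was 18. Features with a mean of at least 10 (8127) were tested with limma 3.58.1 (R 4.3.3, intensity trend, no block, 2-sided) on log2(value + 1), with Benjamini-Hochberg adjustment over all of them at 0.05. This scale understates changes of low genes. Other settings were 2 pseudocounts, 2 filters, TMM, equal totals, quantile normalization, no trend, edgeR 4.0.16 and DESeq2 1.42.0 on recovered reads, adjustment over placed features, length-trend removal (lowess) and each library left out. On recovered reads edgeR called 712 features higher and 854 lower. The members, lists and settings were chosen with earlier results of these data known. Named are the members, their 5 neighbours on each side, the lists fixed with the design and the 5 nearest profiles per member.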

Additional observations from a re-analysis of the deposited data

How the results depend on the processing

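Both groups use the same 3 column letters, which the labels do not tie to replicate numbers. Deviations from the group mean correlated at -0.021, -0.0093 and -0.0007 between libraries of the same letter (8127 features). Between libraries of different letters the correlations ran from -0.017 to 0.018. With 3 libraries per group, these values cannot show whether libraries of the same letter shared a culture or a preparation. With that letter as a replicate block, a fit chosen after seeing the data, limma called 365 features higher and 309 lower, against 952 and 920 without it, Cavin4 kept its call (-5.50, adjusted p = 0.0206), Cav2 was again not called (adjusted p = 0.993) and Cav1 was not called (-0.61, adjusted p = 0.0845). Without a block, the log2 fold change of Cavin4 kept its direction and call in all 19 other settings. That of Cav1 was no longer called after quantile normalization (-0.017), with equal totals (-0.26) and in limma without the trend (-0.61). It lay between -0.62 and -0.59 with 1 library left out, but the call was lost without Scram C and without any 1 shSLX4IP library. Cav2, not called in any of the 19, was positive with TMM factors (0.0043), quantile normalization (0.50), equal totals (0.34), the length trend removed (0.24) and equal totals without Scram A (0.035), and lay between -0.10 and 0.049 with 1 library left out. Equal totals without Scram A was chosen after seeing the data. The difference in log2 Cav1 to Cav2 ratio lay between -0.66 and -0.51 in the 10 other settings run for it. DESeq2 called 1602 features higher and 1624 lower, and with 1 library left out limma called 433 to 1895 higher and 410 to 1573 lower; for DESeq2 the cause was not tested. Of 21 other named genes that were called, 13 kept their call in every setting and 8 lost it in at least 1, and of 19 not called, 9 were called in at least 1. The sign turned after quantile normalization for Calu (0.54), Rab18 (0.023), Stoml2 (0.098), Tex10 (0.063) and Tln1 (0.33), with equal totals for Calu (0.30) and Tln1 (0.040), with the length trend removed for Asph (-0.32), Calu (0.056) and Rock1 (-0.19), and with equal totals without Scram A for Calu (0.033) and Rock1 (-0.0033). With 1 library left out it turned for Asph, Rock1, Tmem168 and Ugcg, which spanned -0.047 to 0.17, -0.14 to 0.47, -0.071 to 0.10 and -0.0072 to 0.19. Recovered reads of Cavin4 in shSLX4IP were few, 43 to 71 per library, which limits the precision of its fold change.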
